A study of Mus musculus with 34 samples.

Results

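The 6 genes described here, Prm1, Prm2, Tnp1, Tnp2, H1f7 and H2bl1, pack or repack DNA in the male germ line, and they were read on 2-colour arrays of mouse epididymal fat. They were chosen by name, as the probes that the platform annotation maps to these genes, and with their log ratios over all pairings already known. Each has 1 probe, so they are 6 of 25344 probes, or 6 of the 22879 genes and unnamed probes tested. Because the measured ratios took part in the choice, the values of the 6 genes are given as a description and are not tested.

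The mice fall into 8 groups by diet and descent. STD mice ate a normal diet. A high fat diet was given to HF0, the offspring of STD, to HF1, the offspring of HF0, to HF3, the offspring of an HF2 generation not analysed here, and to HF4, the offspring of HF3. The groups named HF1-REV, HF3-REV and HF4-REV came from the same parents as HF1, HF3 and HF4 and were kept on the normal diet. Experiment 1 (Trizol RNA) compared STD, HF0, HF3 and HF4 in all pairings on 12 arrays. Experiment 2 (Qiagen RNA) used 22 arrays for the pairings among HF0, HF1, HF3 and HF4, for HF0 with STD on 4 arrays, and for each high fat group with its reversal group on 2 arrays. The sources used here do not give strain, age or the number of animals behind an RNA extract. They do not state sex either, though epididymal fat is a tissue of males. No transgene, deletion or drug is named for any group.

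Every array sets one group against another, once in each dye orientation (4 arrays, in both orientations, for HF0 with STD in experiment 2). Values are deposited log ratios, taken as log2, centred on each array's median and given as the first-named group over the second with Cy5 as the numerator. The sources used here do not give the numerator. On this coding the first-named group has more RNA where a value is positive, and "above" and "below" are used in that sense. If Cy3 was the numerator every sign turns, and the groups then keep their spacing in the opposite order. The values hold no intensity, so they give no level of a gene in a single group and no comparison of levels between genes. For the same reason the labelled tissue could not be checked for the presence of fat cell transcripts.

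Late in sperm development the nucleosomes of the round spermatid are taken apart and the DNA is repacked into a far smaller volume. Testis histone variants loosen the chromatin, the transition proteins encoded by Tnp1 and Tnp2 replace most histones, and the protamines encoded by Prm1 and Prm2 then take their place in the sperm head. H1f7, earlier called H1fnt or H1t2, encodes a linker histone of the spermatid nucleus, and H2bl1 encodes an H2B-class histone variant of the testis. The messenger RNAs of protamines and transition proteins are made in round spermatids and stored for days before translation. These genes are known from the testis and not from fat. Epididymal fat, however, lies against the epididymis, the duct in which sperm mature, and close to the testis. In bulk tissue such as this, fewer cells of a type and less RNA per cell cannot be told apart.

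The stretches just upstream of these genes are shown because the genes shared the sign of HF4 with HF0 in both experiments. That sign was known when the genes were chosen. They lie on 4 chromosomes: Prm1, Prm2 and Tnp2 on chromosome 16, Tnp1 on 1, H1f7 on 15 and H2bl1 on 13. Each line holds the 100 bases before the RefSeq start site (build GRCm38.p6, minus strand in all 6), written 5′ to 3′. The RefSeq promoter table held all 6 genes.
Prm1 (chr16:10796824-10796923): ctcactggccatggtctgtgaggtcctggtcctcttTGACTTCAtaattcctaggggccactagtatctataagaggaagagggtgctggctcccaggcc
Prm2 (chr16:10792106-10792205): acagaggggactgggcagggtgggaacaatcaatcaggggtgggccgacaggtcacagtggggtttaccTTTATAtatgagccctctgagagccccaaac
Tnp1 (chr1:73015900-73015999): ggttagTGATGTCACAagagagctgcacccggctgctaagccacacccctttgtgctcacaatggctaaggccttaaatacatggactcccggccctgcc
Tnp2 (chr16:10788656-10788755): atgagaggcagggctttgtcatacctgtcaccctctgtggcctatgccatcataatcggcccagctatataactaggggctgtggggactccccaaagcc
H1f7 (chr15:98257308-98257407): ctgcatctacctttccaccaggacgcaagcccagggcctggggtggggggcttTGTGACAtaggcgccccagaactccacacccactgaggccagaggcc
H2bl1 (chr13:98984566-98984665): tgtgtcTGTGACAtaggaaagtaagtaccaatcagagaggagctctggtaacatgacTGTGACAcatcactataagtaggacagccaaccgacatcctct
Capitals mark matches, on either strand, to TGANGTCA or TGTGACA and, in Prm2, to TATAAA. TGANGTCA allows any base in the middle of TGACGTCA, the full binding letters of the CREM and CREB factors. TGACGTCA itself was found in the 250 bases before the start of 0 of the 6 genes, and in 1.55% of all 32851 promoters searched alike. TGANGTCA was found in Tnp1 and Prm1, 2 of the 6, against 7.49% of all promoters. TGTGACA was searched for after these sequences had been seen, so its count beside the share of all promoters is no test. It occurred in Tnp1, H2bl1, H1f7 and Prm1, 4 of the 6, against 4.64% of all promoters, and its match in Tnp1 overlaps that to TGANGTCA. The TGTGACA of Prm1 lies 174 bases before the start and one of the matches in H1f7 129 bases, both outside the printed stretches. H2bl1 carries TGTGACA 2 times within the printed bases. TATAAA was found in Prm2 alone, 1 of the 6, against 12.4% of all promoters. These matches describe letters only, and binding was not measured.

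The 2 experiments differ in how well their arrays add up, which bears on every result of experiment 1. Where 3 groups were compared in all 3 pairings, the ratio of one pairing should equal the sum of the other 2. In experiment 2 the median mismatch of the 6 genes lay between -0.65 and 0.14 over the 4 such triangles, and the single genes ran from -1.08 to 0.35. In experiment 1 the mismatch had a median of 3.49 for HF4, HF3 and HF0 and 4.34 for HF3, HF0 and STD, with all 6 genes beyond 1 in both. The triangles of experiment 1 without the arrays labelled HF3 with HF0 had medians of -0.44 and 0.57.

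For the 6 genes, the arrays labelled HF3 with HF0 in experiment 1 differed most from the other pairings of that experiment, by a median of 3.91. HF0 with STD and HF3 with STD differed by 2.31 and 2.26, from other pairings that include the HF3 with HF0 arrays. The HF3 with HF0 arrays had a median of 4.21 over the 6 genes, while the other pairings of experiment 1 give 0.16. For Tnp1 the direct value was 5.12 and the indirect value 0.38, and for H1f7 they were 4.09 and -0.06. Across all features the direct and indirect ratios of HF3 with HF0 correlated at r = 0.05, as a description over features that share arrays. The 6 pairings of experiment 2 that could be checked so gave r between 0.61 and 0.86. In experiment 1 the other pairings ranged from -0.13 for HF0 with STD to 0.70 for HF4 with STD, with 0.03 for HF3 with STD. The mismatch thus touches more than these 6 genes and more than the HF3 with HF0 pairing. Over all features, 8.68% and 8.65% missed by more than 1 in the 2 triangles with the HF3 with HF0 arrays and 3.90% and 6.78% in those without. Which arrays or labels are at fault was not tested. Experiment 2 is therefore described first, and values that rest on the HF3 with HF0 arrays of experiment 1 are given with and without them.

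**Figure D1:**
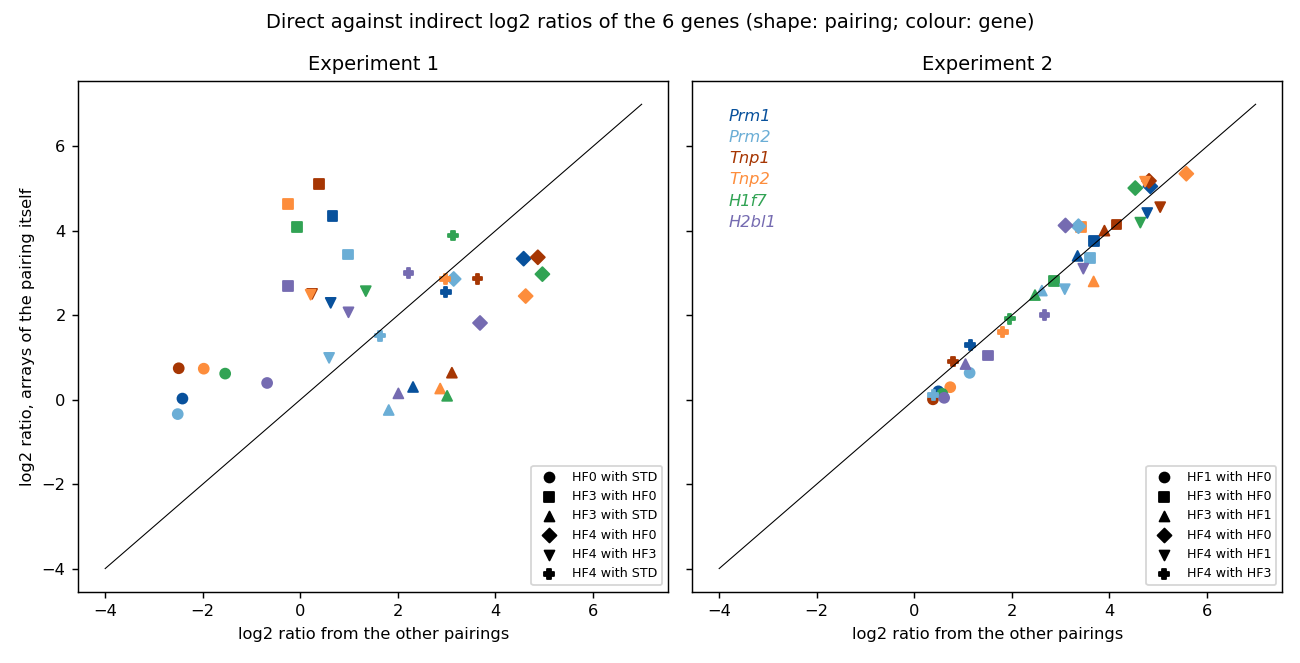
Log2 ratio of each of the 6 genes from the arrays of a pairing (vertical axis) against the log2 ratio that the other pairings of the same experiment give (horizontal axis), with a line of equality. Colour marks the gene and shape the pairing. In experiment 2 points lie near the line, and in experiment 1 the squares, HF3 with HF0, lie far above it, with a median of 4.21 by direct and 0.16 by indirect reading.

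Prm1 encodes the arginine-rich protamine found in the sperm of all mammals. It was far above HF0 in HF4 mice of experiment 2, with 4.18 on one array and 5.93 on the other. HF3 with HF0 gave 3.79 and 3.75. HF0 with STD gave -5.003, -5.07, -4.25 and -4.75 on its 4 arrays. HF3, HF4 and STD of experiment 2 thus all stood above HF0 on every array that compared them with it. HF1 with HF0 gave -0.13 and 0.53, so the first generation born to high-fat parents did not separate from HF0 in sign.

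Prm2 encodes a protamine made as a precursor that is trimmed as the sperm nucleus condenses. Its HF4 with HF0 arrays of experiment 2 read 3.22 and 5.005, and its HF3 with HF0 arrays 4.09 and 2.64. HF0 with STD gave -4.23, -3.70, -2.98 and -2.88. HF3, HF4 and STD stood above HF0 as for Prm1. HF1 did too at a smaller size, with 0.83 and 0.44 in HF1 with HF0, so both arrays were positive for Prm2. On average its ratios leaned more to one dye than those of the other 5 genes, as described further on.

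Tnp1 and Tnp2 encode the transition proteins. Tnp1 read 4.41 and 5.96 in HF4 with HF0 of experiment 2, 4.29 and 4.01 in HF3 with HF0, and -5.17, -5.13, -4.80 and -4.49 in HF0 with STD. Tnp2 read 4.71 and 6.00 in HF4 with HF0. It read 4.11 and 4.07 in HF3 with HF0, and -5.12, -5.52, -4.38 and -4.61 in HF0 with STD. In HF4 with HF0 of experiment 2, Tnp2 had the second and Tnp1 the fourth most positive mean of all 22879 features, Prm1 rank 8 and H1f7 rank 10. H2bl1 had rank 54 and Prm2 rank 62. HF1 with HF0 stayed near 0 for both, at -0.24 and 0.26 for Tnp1 and at 0.28 and 0.31 for Tnp2.

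The histone genes H1f7 and H2bl1 had the same sign but other proportions. H1f7 read 4.85 and 5.18 in HF4 with HF0 of experiment 2, 2.55 and 3.07 in HF3 with HF0, and -3.15, -4.30, -3.63 and -3.60 in HF0 with STD. Its HF4 arrays lay above both of its HF3 arrays. H2bl1 read 4.25 and 4.01 in HF4 with HF0 but 0.44 and 1.66 in HF3 with HF0, and -0.53, -2.33, -2.67 and -2.26 in HF0 with STD. H2bl1 thus read about as high as Prm2 in HF4 and lay closer to HF0 than the other 5 genes in HF3 and STD. H1f7 with HF1 over HF0 gave 0.12 and 0.15, and H2bl1 -0.30 and 0.39.

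Counted over arrays, 6 of the 6 genes exceeded 1 on both arrays of HF4 with HF0 in experiment 2, against 4.25% of all features. In HF3 with HF0 it was 5 of 6, all but H2bl1, against 2.71%. In HF0 with STD 5 of 6, again all but H2bl1, lay below -1 on all 4 arrays, against 2.71% of all features. HF1 with HF0 had 0 of 6 above 1, against 0.874%. HF3 with HF1 had 5 of 6, all but H2bl1 (2.08% of all features), and HF4 with HF1 6 of 6 (3.99%). In those direct pairings Prm1 read 3.20 and 3.62 in HF3 with HF1 and 5.19 and 3.66 in HF4 with HF1, and H2bl1 1.05 and 0.64 and then 2.72 and 3.49. The shares over all features are given as background, and nothing is read from the genes' counts, since the ratios took part in choosing the genes.

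Group values by least squares put all 22 arrays of experiment 2 on one scale, with HF0 at 0. HF4 stood at 4.95 for Prm1, 3.74 for Prm2, 4.999 for Tnp1, 5.47 for Tnp2, 4.77 for H1f7 and 3.61 for H2bl1. STD stood at 4.77, 3.45, 4.90, 4.91, 3.67 and 1.95 for the same genes in that order, and HF3 at 3.72, 3.49, 4.15, 3.76, 2.84 and 1.28. HF1, HF3-REV and HF4-REV lay between -0.30 and 1.00 for every one of the 6 genes. HF1-REV lay lowest for Prm1, Prm2, Tnp1, Tnp2 and H1f7.

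Each group of experiment 2 is, as far as the labels tell, 1 extract, so there is no spread between extracts against which to say which neighbours in this order differ. The triangle mismatches above cover error between arrays only, and STD and the reversal groups are in no triangle of experiment 2. HF4 exceeded STD by 0.18 for Prm1, 0.29 for Prm2, 0.10 for Tnp1, 0.56 for Tnp2, 1.10 for H1f7 and 1.67 for H2bl1. HF3 against STD was -1.04 for Prm1, 0.042 for Prm2, -0.75 for Tnp1, -1.15 for Tnp2, -0.84 for H1f7 and -0.67 for H2bl1. The order of HF4, STD and HF3 was thus the same for 5 of the 6 genes, and for Prm2 HF3 and STD lay together. STD was linked to the other groups of experiment 2 through HF0 alone, so its distance to HF3 and HF4 has no direct array there.

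**Figure D2:**
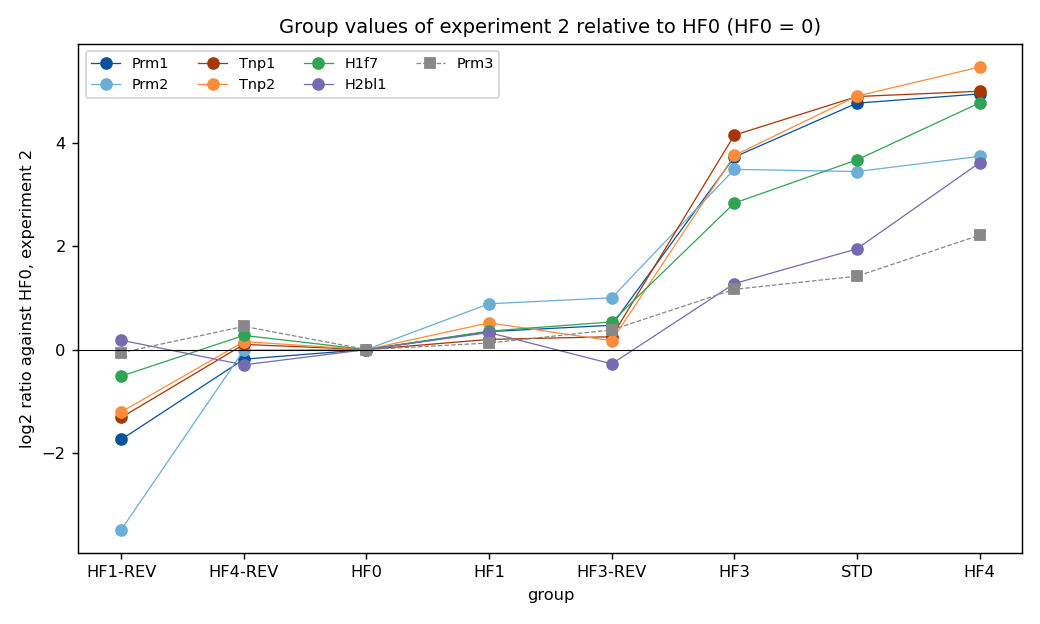
Group values of the 6 genes and of Prm3 in log2 units against HF0, in experiment 2. The thin lines join the values of a gene and stand for no order in time. In experiment 2, HF3, STD and HF4 stand above the other groups for every gene drawn, the lowest being Prm3 in HF3 at 1.17. The other groups reach at most 1.00, for Prm2 in HF3-REV.

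The reversal groups share parents with their namesakes and differ in diet. HF4 with HF4-REV gave 6.22 and 4.04 for Prm1, 6.20 and 3.60 for Tnp1, 6.06 and 4.57 for Tnp2, and 5.14 and 2.36 for Prm2. H1f7 gave 4.41 and 4.58 there, and H2bl1 3.73 and 4.09. All 6 genes exceeded 1 on both arrays, against 4.07% of all features.

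HF3 with HF3-REV was lower but of the same sign. Prm1 read 3.12 and 3.39, Tnp1 3.98 and 3.82, Tnp2 3.29 and 3.89, and Prm2 2.94 and 2.03. H1f7 read 2.19 and 2.41 and H2bl1 1.20 and 1.90, so again all 6 exceeded 1 on both arrays, against 1.87% of all features.

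HF1 with HF1-REV differed from these in which gene led. Prm2 read 4.04 and 4.71, the third most positive mean of all features, while Prm1 read 2.88 and 1.29. Tnp1 gave 1.57 and 1.45, Tnp2 1.84 and 1.61, H1f7 0.65 and 1.09, and H2bl1 0.63 and -0.33. Prm1 stood 2.28 below Prm2 in this pairing, although the genes lie side by side. Prm1, Prm2, Tnp1 and Tnp2, 4 of the 6, exceeded 1 on both arrays, against 0.21% of all features. HF1 itself stood at 0.89 for Prm2 and at 0.20 to 0.52 for the other 5 genes against HF0. HF1-REV then stood at -3.49 for Prm2, -1.74 for Prm1, -1.31 for Tnp1 and -1.21 for Tnp2 against HF0. H1f7 was at -0.51 and H2bl1 at 0.18. In the same pairing the 18 measured epididymal markers had a median of 0.31 with 7 above 1, led by the protease inhibitor Spink8 at 4.48 (chosen after its value was seen) and the lipocalin Lcn5 at 4.26. The 16 elongating spermatid markers had a median of 0.27 with 3 above 1, led by Gsg1 at 2.74. Over all features 0.516% lay above 1 by their mean and the median was -0.01. The part of these cells in the values was not tested.

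Experiment 1 gave the same sign for HF4 with HF0 in all 6 genes, at smaller size. Prm1 read 3.57 and 3.11, Prm2 3.13 and 2.59, Tnp1 3.66 and 3.09, and Tnp2 2.64 and 2.27. H1f7 read 3.01 and 2.94 and H2bl1 1.49 and 2.15, so 6 of 6 exceeded 1 on both arrays, against 2.1% of all features. The HF4 with STD arrays of experiment 1 were positive too, at 1.43 and 3.67 for Prm1, 1.87 and 3.86 for Tnp1, and 3.50 and 4.28 for H1f7. Tnp2 read 2.24 and 3.48, H2bl1 3.04 and 2.97 and Prm2 0.59 and 2.45, so 5 of 6 exceeded 1 on both arrays (3.57% of all features). Experiment 2 had no array of HF4 with STD, and its group values put HF4 above STD by less. In the order Prm1, Prm2, Tnp1, Tnp2, H1f7 and H2bl1 they were 0.18, 0.29, 0.10, 0.56, 1.10 and 1.67. Those of experiment 1 were 2.77, 1.58, 3.25, 2.92, 3.51 and 2.61.

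The value of HF3 in experiment 1 depended on the arrays used. The arrays labelled HF3 with HF0 had a median of 4.21 over the 6 genes in experiment 1 and 3.57 in experiment 2. HF4 with HF3 had medians of 2.39 and 1.45, and HF3 with STD had no array in experiment 2. HF3 with STD in experiment 1 read 0.44 and 0.17 for Prm1, -0.16 and -0.33 for Prm2, 1.00 and 0.28 for Tnp1 and 0.45 and 0.08 for Tnp2, with 0 of 6 above 1 on both arrays (0.227% of all features). H1f7 read 0.12 and 0.06, and H2bl1 -0.63 and 0.94. The arrays labelled HF3 with HF0 read 3.84 and 4.84 for Prm1, 4.68 and 5.55 for Tnp1, 4.22 and 5.04 for Tnp2, and 2.82 and 4.06 for Prm2 in that experiment. H1f7 read 3.92 and 4.25 there, and H2bl1 2.93 and 2.46, with 6 of 6 above 1 (4.02% of all features). Fitted to all arrays of experiment 1, HF3 had a median of 2.20 over the 6 genes against HF0, and 0.16 without the HF3 with HF0 arrays. HF4 went from 3.75 to 2.66 and STD from 0.75 to -0.44.

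HF0 with STD was measured directly in both experiments, and there the experiments parted. Where experiment 2 read from -5.52 to -0.53 over its 4 arrays and 6 genes, experiment 1 read 0.30 and -0.25 for Prm1, -0.15 and -0.53 for Prm2, and 1.22 and 0.27 for Tnp1. Tnp2 read 1.02 and 0.46, H1f7 0.89 and 0.35, and H2bl1 0.39 and 0.41, with 0 of 6 above 1 on both arrays (0.127% of all features). The median over the 6 genes was 0.51 in experiment 1 and -4.22 in experiment 2. The other pairings of experiment 1, the HF3 with HF0 arrays among them, gave a median of -2.20 for this difference. The sign in experiment 1 thus depended on the arrays used. The 18 measured markers of the epididymal epithelium had medians of -1.81 and -4.53 in the same pairings. In the triangle of HF4, HF0 and STD in experiment 1 these markers had a median mismatch of -0.89, with 7 of 18 beyond 1. The 11 macrophage markers, genes of the immune cells that gather in fat, had medians of -0.06 and 1.09, and the 13 markers of mature adipocytes -0.24 and -0.53. The part of these cell types in the result was not tested. A mean of HF0 against STD over both experiments describes neither, and none is given here.

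HF4 with HF3 separated the genes from one another. In experiment 2 H2bl1 read 2.27 and 1.74 and H1f7 1.95 and 1.89, while Tnp1 read 1.90 and -0.10 and Prm2 1.39 and -1.16. Prm1 read 2.00 and 0.59 and Tnp2 1.95 and 1.26. H2bl1, H1f7 and Tnp2, 3 of the 6, exceeded 1 on both arrays, against 1% of all features, and the sign for Prm2 and Tnp1 depended on the dye orientation. In experiment 1 all 12 values were positive, from 0.43 for Prm2 to 3.13 for Tnp1, and 5 of 6 genes exceeded 1 on both arrays (1.68% of all features). Their median there was 2.39 directly, while the other pairings of experiment 1, the HF3 with HF0 arrays among them, gave 0.61.

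The genes differed in proportion between pairings. The mean of Prm1, Prm2, Tnp1 and Tnp2 minus the mean of H1f7 and H2bl1 was 1.91 in HF3 with HF0 of experiment 2 and 0.35 in HF4 with HF0. It was 1.91 in HF1 with HF1-REV, -1.69 in HF0 with STD and -0.98 in HF4 with HF3. In HF1 with HF0 it was 0.19. In experiment 1 it was -0.22 in HF0 with STD, 0.12 in HF3 with STD, -0.25 in HF4 with HF3 and 0.61 in HF4 with HF0. Relative to HF0, the protamine and transition protein genes thus exceeded the histone genes by more in HF3 and STD of experiment 2 than in HF4. Over the 12 group values of both experiments, Prm1 and Tnp1 were the most alike pair, with a Pearson correlation of 0.995, and Prm2 and H2bl1 the least, with 0.75. H1f7 correlated with Tnp2 at 0.982, Tnp1 at 0.979 and Prm1 at 0.975, and with H2bl1 at 0.959. H2bl1 was nearest to H1f7, and correlated with Prm1, Prm2, Tnp1 and Tnp2 at 0.75 to 0.92. The values share arrays and the reference group, so the correlations are a description.

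Dye orientation moved Prm2 most. The mean of Cy5 over Cy3 over the 16 pairings, which should be 0, was 0.65 ± 0.42 (SD, 16 pairings) for Prm2 and positive in 16 of 16. It was 0.49 ± 0.45 for Tnp1, 0.33 ± 0.54 for Prm1, 0.17 ± 0.45 for Tnp2, 0.06 ± 0.16 for H1f7 and -0.25 ± 0.28 for H2bl1. Over all features the median was 0.00 and the range from the 5th to the 95th percentile -0.31 to 0.39. The mean of both orientations, used for all group values, balances such an offset. These mean offsets are small beside the differences of HF4 from HF0. Single pairings reached 1.39 for Prm2 and 1.30 for Tnp1, both in HF4 with HF4-REV. In HF4 with HF3 of experiment 2 the offset exceeded the ratio, at 1.28 beside 0.11 for Prm2 and 1.00 beside 0.90 for Tnp1.

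In the fit over both experiments, HF4 against HF0 was 4.45 ± 0.75 for Prm1, 3.37 ± 0.43 for Prm2, 4.56 ± 0.86 for Tnp1, 4.50 ± 0.88 for Tnp2, 4.37 ± 0.69 for H1f7 and 3.18 ± 0.43 for H2bl1 (log2 ± SE, 2 experiments). By limma with Benjamini-Hochberg adjustment, 963 of all features passed an adjusted p of 0.05 in HF4 against HF0, 4.21% of them, and 959 were positive, 4.19%. All 6 genes were among them, which the choice of genes does not let stand as a test. HF4 against STD had 100 features past the threshold (0.437%), with 0 of the 6 among them. HF3 against HF0, HF4 against HF3, HF0 against STD and HF3 against STD had 0 by limma, with 1785, 1259, 1685 and 1708 at an unadjusted p of 0.05. Without the HF3 with HF0 arrays of experiment 1, an alternative chosen after seeing the data, limma called 0 features in HF4 against HF0 and 2059 passed unadjusted. The 6 genes themselves then stood at 3.99 for Prm1, 3.06 for Prm2, 3.97 for Tnp1, 3.89 for Tnp2, 3.85 for H1f7 and 2.82 for H2bl1. The calls quoted for other genes below rest on those arrays in the same way.

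Prm1, Prm2 and Tnp2 form a cluster on chromosome 16 with Prm3, which encodes a small acidic protein. In the RefSeq gene order they are flanked by Socs1 on one side and Rmi2 on the other, named here by position. Prm3 had the signs of the cluster at a lower size, with 2.67 and 2.95 in HF4 with HF0 of experiment 2, 0.55 and 0.90 in HF3 with HF0, and -1.57, -1.88, -1.17 and -1.06 in HF0 with STD. In HF1 with HF1-REV it read 0.16 and 0.21, far from the 4.04 and 4.71 of Prm2 beside it. The neighbours stayed within 0.33 of 0 in these pairings. Socs1, an inhibitor of cytokine signalling, had means of -0.19, 0.33 and -0.10. Rmi2, a subunit of a DNA repair complex, had 0.03, -0.12 and 0.16.

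Other testis histones were measured for 7 of 12 genes, Prm3 included. By limma 4 passed in HF4 against HF0, all positive (4.19% of all features), and the median of the 7 was 2.08, against -0.03 for all features. H2al2a, an H2A variant that loads with the transition proteins, was at 3.01 ± 0.47, the spermatid linker histone Hils1 at 2.43 ± 0.40 and Prm3 at 2.11 ± 0.28. The linker histone H1f6 and the testis core histones H2ac1 and H2bc1, which appear before and during meiosis, had 0.07, 0.03 and 0.09 and did not pass. They were chosen after their values were seen.

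Genes that act around these 6 in the spermatid were counted by role. Of 13 transcription factors and cofactors of spermatids, 5 passed by limma in HF4 against HF0, all positive, with a list median of 0.42, beside 4.19% and -0.03 over all features. Spz1, a basic helix-loop-helix factor of the testis, was at 4.63, the germ cell general factor subunit Gtf2a1l at 3.54 and the CREM coactivator Fhl5 at 1.96. Crem, named as the factor of the promoter letters above, was at 0.15 and did not pass. Of 11 genes for storage and translation of spermatid messages, 8 passed, all positive, with a median of 1.44, among them the RNA helicase Ddx25 at 3.50, the piRNA-binding Piwil1 at 3.29 and the germ cell helicase Ddx4 at 3.23. Of 20 genes for histone removal and remodelling, many of which act in all tissues, 2 passed with a median of 0.12, a count close to the share of all features: the histone ubiquitin ligase Phf7 at 3.54 and the testis kinase Tssk6 at 1.63.

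Marker lists of the male germ line were counted by stage. By limma 11 of 16 markers of elongating spermatids passed in HF4 against HF0, 9 of 15 of round spermatids, 8 of 15 of spermatocytes and 0 of 9 measured markers of spermatogonia, all positive, beside 4.19% of all features. At that share 0 of 9 is close to the background. The medians were 2.51, 1.36, 1.91 and 0.01, beside -0.03 over all features, and the difference between stages was not tested. Ropn1l, of the sperm tail, was at 4.63, Gsg1 at 4.47 and Odf1, of the outer dense fibres, at 3.24. Meig1, needed in spermatid development, was at 4.66, the germ cell lactate dehydrogenase Ldhc at 4.20 and the synaptonemal complex gene Syce1 at 3.72. Among round spermatid markers the acrosome genes Spaca1 and Acrv1 were at 3.41 and 2.98.

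Somatic markers of the testis, epididymis and fat gave no calls in HF4 against HF0, which for lists of this length is near the 4.21% called over all features. Sertoli cell markers had a median of -0.05 and 0 of 12 passed by limma in HF4 against HF0, with Aard the highest at 1.33. Leydig cell markers had 0.23 and 0 of 7, with the steroid hydroxylase Cyp17a1 at 0.75. Markers of the epididymal epithelium had 0.36 and 0 of 18, with Lcn5 at 1.77, those of mature adipocytes 0.06 and 0 of 13, and those of macrophages -0.36 and 0 of 11. In experiment 2 the epididymal list stood at 4.53 in STD against HF0 but at 0.54 in HF4 and 0.42 in HF3. Between HF4 and STD, Prm1, Prm2, Tnp1 and Tnp2 differed by 0.10 to 0.56, H1f7 by 1.10 and H2bl1 by 1.67. Elongating spermatid markers stood at 1.39 in STD, 2.86 in HF4 and 1.55 in HF3. Adipocyte markers were furthest from HF0 in HF1-REV, at 1.45, and HF4-REV, at 1.05. The part of these cell types in the values of the 6 genes was not tested.

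**Figure D3:**
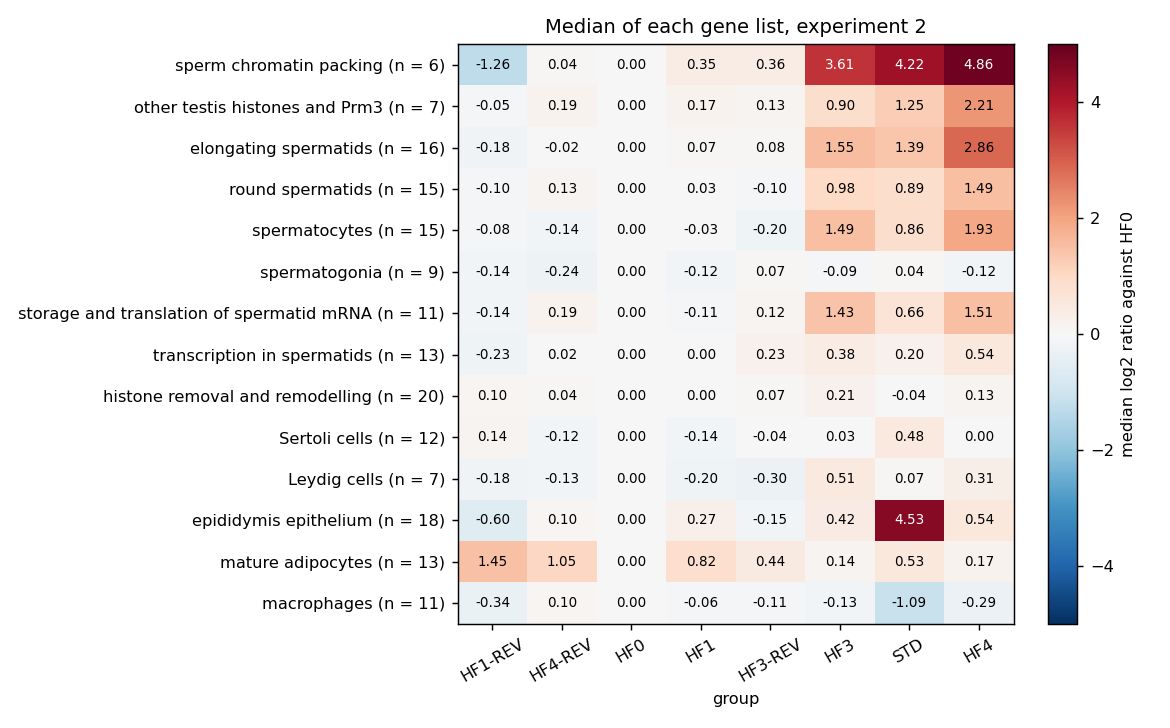
Median log2 ratio against HF0 of each gene list in each group of experiment 2, printed in the cells, with n the number of measured genes. The 6 genes stand highest in HF4, STD and HF3. The epididymal list is high in STD alone, at 4.53.

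The genes most like the mean of the 6 over the 12 group values were Odf2, a main protein of the sperm tail's outer dense fibres, with a Pearson correlation of 0.996, 0610040B10Rik with 0.996, and Plaat5, a lipid acyltransferase, with 0.993. The sperm membrane protease relative Adam3, Spata24, the piRNA factor Mael, the chaperone Dnajb3 and the testis glycerol kinase Gk2 followed, with 0.993 to 0.991. Odf2, Plaat5 and Gk2 were also the nearest in size, with root mean square differences of 0.20, 0.25 and 0.27. 0610040B10Rik had the same shape at a small size, with 0.43 ± 0.14 in HF4 against HF0. In all 681 of 18611 named genes, 3.66%, had a correlation above 0.9, so the pattern is shared widely. These correlations describe group values that share arrays, and those of experiment 1 carry the mismatch described above.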

How the data were processed

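The authors deposited 1 log ratio per probe and array for 34 arrays. Base 2 was assumed for these deposited log2 ratios, since the largest, 7.99, exceeds the 4.82 that a 16-bit scanner allows in base 10, but a natural log fits too, so no fold is given. The sources used here do not give background correction, normalization or filtering. Probes were named through the platform annotation, and 20456 symbols were updated by gene ID. Arrays were median-centred, probes of a gene averaged, and orientations of a dye swap averaged. Group values came from least squares within each experiment. The 12 values were fitted with limma 3.58.1 in R 4.3.3 (lmFit, eBayes, experiment as block, 3 residual and 3.16 prior degrees of freedom), with Benjamini-Hochberg adjustment over 22879 features.

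HF1 and the reversal groups have no second extract. Since nothing ties samples to separate animals, p-values measure only the spread between experiments, which may be technical. In simulated data for HF4 against HF0 over 22879 features, the fit recovered 45 of 100 features changed by 1 and 91 of 100 changed by 2, with 5 false calls. The simulated group values were independent of one another. They held neither shared arrays nor the mismatch of experiment 1, so these rates need not hold for the deposited data. The genes and lists were chosen with earlier results of these data known. Besides the 6 genes, the 3 genes of each list with the largest HF4 against HF0 values, the 8 most correlated genes and the 3 nearest in value could be named. Alternatives were other normalizations, no centring, single probes, a robust prior, each experiment alone and leaving out arrays. Python 3.11.15, numpy 2.4.6, pandas 2.3.3 and matplotlib 3.10.9 were used.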

Additional observations from a re-analysis of the deposited data

Results flagged for a closer look

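Direct arrays of HF0 with STD gave opposite signs in the 2 experiments, on every array, for 4 of the 6 genes and Prm3. The means in experiment 1 and experiment 2 were 0.75 and -4.90 for Tnp1, 0.74 and -4.91 for Tnp2, 0.62 and -3.67 for H1f7, 0.40 and -1.95 for H2bl1, and 0.25 and -1.42 for Prm3. The difference between the experiments was not tested, and RNA extraction differed between them too (Trizol and Qiagen). Prm1 and Prm2 had arrays of both signs, or negative ones, in experiment 1. The sign in experiment 1 depended on the arrays used. Fitted to all its arrays, HF0 against STD was -0.87 for Tnp1, -0.62 for Tnp2, -0.46 for H1f7 and -0.14 for H2bl1. Without its HF3 with HF0 arrays it was 0.31, 0.60, 0.58 and 0.59 in the same order. Prm3 went from -0.33 to 0.15.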

How the results depend on the processing

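In HF4 against HF0 the 6 genes kept a positive value under every alternative run. The count of 963 features called by limma there lay between 850 (without replicate 1 of HF0 with STD in experiment 2) and 1016 (without replicate 1 of HF4 with HF0 in experiment 1) when single arrays were left out. It was 0 without both HF3 with HF0 arrays of experiment 1, an alternative chosen after seeing the data. HF4 against STD, with 100 calls, gave 310 on scaled arrays, 324 after quantile normalization, 46 with each probe on its own, 898 without the STD extract of experiment 2 and 0 without the HF3 with HF0 arrays of experiment 1. With single arrays left out it ranged from 30 to 227. The lowest and highest values came without replicates 4 and 2 of HF0 with STD in experiment 2, and replicates 1 and 3 of that pairing gave 40 and 213. It was also 53 without HF3 with STD replicate 1 of experiment 1, and 63, 45 and 61 without HF3 with HF0 replicates 1 and 2 and HF3 with HF1 replicate 2 of experiment 2. HF3 against HF0 gave 121 on scaled arrays, 584 without the STD extract of experiment 2 and 0 to 1 without single arrays, and HF4 against HF3 gave 252 without the STD extract. Single arrays left HF4 against HF3, HF0 against STD and HF3 against STD at 0. The causes were not tested.

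The fitted HF3 against STD values of the genes changed sign. In experiment 2 alone they were -1.04 for Prm1, -0.75 for Tnp1, -1.15 for Tnp2, -0.84 for H1f7 and -0.67 for H2bl1. Without the HF3 with HF0 arrays of experiment 1 they were -0.33, -0.028, -0.40, -0.16 and -0.16 in the same order. Leaving out 1 array gave -0.020 to 0.43 for H2bl1, lowest without HF0 with STD replicate 1 of experiment 2, and -0.0087 to 0.27 for Prm1, lowest without HF4 with STD replicate 2 of experiment 1. No paired analysis was possible because the labels give no replicate numbers beyond the experiment, which is already the block of the fit. No filter on dim spots could be run, since the values hold no intensities, and the fit rests on 12 group values from 2 experiments.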
